A study of Mus musculus with 8 samples.

Results

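The genes described here encode the subunits of the mitochondrial respiratory chain, complexes I to IV, and of the ATP synthase, complex V. They were chosen by symbol, as Nduf followed by a, b, c, s or v and a digit, or as Sdha, Sdhb, Sdhc or Sdhd. Names beginning with Uqcr, Cox4 to Cox8 or Atp5 were also taken, together with the subunit genes of the mitochondrial genome. The rule itself uses no measured value, but it was set with earlier results of these data known. The rule gave 99 of the 39179 genes in the count tables. Of these, 86 are encoded in the nucleus, namely 36 of complex I, 4 of complex II, 8 of complex III, 19 of complex IV and 19 of complex V. The other 13 are encoded in mitochondrial DNA, 7 of them in complex I, 1 in complex III, 3 in complex IV and 2 in complex V. The deposited comparison lists the mitochondrial genes as ND1, COX1 and the like, so that the symbol pattern itself found 0 of them, and all 13 were taken by Ensembl identifier. Among the nuclear genes, 3 are additional identifiers that the file calls Atp5g2, Atp5l and Cox5b and that the GENCODE annotation calls Gm10175, Gm10221 and Gm11273. By its name Ndufa4 is counted with complex I, although its protein is now assigned to complex IV. Atp5s and Atp5sl are likewise counted with complex V by name, and the complex I subunit Ndufb4, listed under the symbol Gm3244, falls outside the rule.

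RNA was sequenced from astrocytes of the mouse spinal cord, sorted by flow cytometry for the Aldh1l1-GFP reporter, which both groups carry, at postnatal days 12 to 14 on a mixed Swiss-Webster strain. The 4 control libraries, S1, S2, S6 and S7, came from animals labelled wild-type and described as negative for cre. The 4 cKO libraries, S3, S4, S5 and S8, came from animals with Aldh1l1-cre and both Kir4.1 alleles floxed, so that Kir4.1, an inward-rectifier potassium channel and the product of Kcnj10, was deleted where the Aldh1l1 promoter drives cre. The series design calls the 4 libraries of each group biological replicates, and nothing further is said of litters or pooling. Where a value is given for each library, the order is S1, S2, S6, S7 for control and S3, S4, S5, S8 for cKO.

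The respiratory chain passes electrons from NADH and succinate through complexes I, II and III and cytochrome c to oxygen at complex IV. Complexes I, III and IV pump protons across the inner mitochondrial membrane, and complex V uses the proton gradient to make ATP. Mitochondrial DNA encodes a small set of core membrane subunits, while the remaining subunits are transcribed in the nucleus, translated in the cytosol and imported. Astrocytes are known for high rates of glycolysis but also hold a complete respiratory chain, and their uptake of potassium and glutamate is coupled to ion pumps that consume ATP.

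The libraries held 13892736 to 25065686 reads in genes, and ribosomal and related transcripts took 33.8% to 46.3% of these reads. Kcnj10 was measured at 1820.1 ± 468 CPM (counts scaled to a common library size with TMM factors; SD, n = 4) in control and 34 ± 4.64 CPM in cKO libraries, a log2 fold change of -5.74 (SE 0.25, edgeR adjusted p = 7.5e-08). The summed level of 11 astrocyte markers was 17264 to 25690 CPM in control and 20552 to 25164 CPM in cKO libraries, with 0 of the 11 markers at 0 in any library. At an edgeR adjusted p under 0.05, 2 of the 11 were higher in cKO and 0 lower, against 0.203% and 0.115% of all genes tested. Aldh1l1, the gene of the reporter and of the cre promoter, was at 139 ± 8.65 CPM in control and 282 ± 48.8 CPM in cKO libraries. Its groups did not overlap, and the log2 fold change was 1.01 (SE 0.16, edgeR adjusted p = 0.018). Markers of other cell types were present as well, and 10 oligodendrocyte markers summed to 1480 to 2950 CPM in control and 983 to 2413 CPM in cKO libraries, with 0 of them at 0 in any library. The 6 markers of oligodendrocyte precursors summed to 337 to 1132 CPM and 227 to 518 CPM in the same order, again with 0 at 0. The part of these cells in the subunit levels was not tested. In sorted bulk RNA of this kind, fewer cells of a type and less RNA per cell cannot be told apart. Xist, the transcript made from the inactive X chromosome of female cells, was at 1920, 0.437, 2400 and 1817 CPM in the control libraries. In the cKO libraries it was at 0.562, 2257, 0.171 and 2386 CPM, so libraries with and without it were mixed unevenly in the groups.

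The arrangement of the genes bears on how they could be counted, and 2 kinds of sequence are shown for that reason. The first is the stretch of the mitochondrial genome, GRCm38 chrM:7927-7969 on the plus strand, in which the end of mt-Atp8 and the start of mt-Atp6 overlap by 43 bases. Both genes encode membrane subunits of the ATP synthase, and a read that lies within this stretch fits both. The capitals mark the start codon of mt-Atp6 and the stop codon of mt-Atp8.
mt-Atp8 and mt-Atp6 shared stretch: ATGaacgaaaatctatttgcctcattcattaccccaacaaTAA

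The second kind is the promoter of nuclear subunit genes, taken from RefSeq for build GRCm38.p6 as 250 bases before to 50 bases after the transcription start. Of 83 nuclear genes, counting 1 identifier for each symbol, 66 had a promoter entry, with 72 promoters among them. Motifs were searched on both strands. The NRF1 motif CGCATGCG was found in 9 of the 72 promoters (12.5%), those of Atp5g2, Atp5j, Atp5k, Atp5l, Cox6a1, Ndufa8, Ndufa11, Uqcr11 and Uqcrc1, and in 1.87% of all 32851 mouse promoters in the table. The YY1 motif AANATGGC was found in 18 of 72 (25%) and in 6.05% of all promoters. The ETS motif CCGGAAGT was found in 5 of 72 (6.94%) and in 3.89% of all, and the ERR motif TCAAGGTCA in 2 of 72 (2.78%), those of Atp5g3 and Sdhd, and in 0.423% of all. None of these motifs is contained in another, and the NRF1 motif reads the same on both strands. Member promoters held a median of 19 CpG dinucleotides, against 7 in all promoters, so base composition differed between the compared sets. A match describes letters in a window and not a bound factor. The promoters printed are those of Atp5b, the nuclear subunit gene with the highest read level, of Ndufb11, among the 4 nuclear members with the smallest p-values in the comparison of genotypes, and of Cox6a1, the nuclear member with the highest mean CPM per kilobase in the control libraries. Capitals mark the motif match, which is a YY1 match 17 bases after the start in Atp5b and 211 bases before it in Ndufb11, and an NRF1 match 161 bases before it in Cox6a1. The YY1 match of Atp5b lies on the opposite strand. Their positions are chr10:128083057-128083356 on the plus strand for Atp5b, chrX:20617570-20617869 on the minus strand for Ndufb11 and chr5:115348909-115349208 on the minus strand for Cox6a1.
Atp5b promoter: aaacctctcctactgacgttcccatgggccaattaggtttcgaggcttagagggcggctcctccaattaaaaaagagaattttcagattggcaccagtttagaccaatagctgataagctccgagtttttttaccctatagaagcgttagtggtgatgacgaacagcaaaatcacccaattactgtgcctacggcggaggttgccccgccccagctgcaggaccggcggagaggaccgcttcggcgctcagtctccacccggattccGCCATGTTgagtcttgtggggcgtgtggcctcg
Ndufb11 promoter: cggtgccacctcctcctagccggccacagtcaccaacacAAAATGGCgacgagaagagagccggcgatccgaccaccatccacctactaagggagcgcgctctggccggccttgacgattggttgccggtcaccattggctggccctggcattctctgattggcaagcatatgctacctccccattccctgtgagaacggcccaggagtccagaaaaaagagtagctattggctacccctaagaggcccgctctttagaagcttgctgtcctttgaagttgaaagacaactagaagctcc
Cox6a1 promoter: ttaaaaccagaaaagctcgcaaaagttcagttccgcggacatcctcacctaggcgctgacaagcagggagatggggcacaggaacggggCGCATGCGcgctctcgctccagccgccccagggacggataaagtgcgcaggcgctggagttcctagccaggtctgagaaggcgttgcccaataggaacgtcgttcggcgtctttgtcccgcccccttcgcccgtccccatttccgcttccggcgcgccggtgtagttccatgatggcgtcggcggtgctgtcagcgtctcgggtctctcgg

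Mitochondrially encoded subunits were far more abundant than nuclear-encoded ones in every library. They took 1.57%, 1.89%, 2.15% and 1.68% of all gene reads in the control libraries, and 1.81%, 2.2%, 2.11% and 2.03% in the cKO libraries. The nuclear-encoded subunits together took 0.540%, 0.518%, 0.357% and 0.502% among controls and 0.479%, 0.470%, 0.548% and 0.392% among cKO libraries. The ranges of the groups overlapped for both shares. Per read of a nuclear-encoded subunit there were 3.98 ± 1.39 reads of a mitochondrially encoded one in control and 4.37 ± 0.670 in cKO libraries (SD, n = 4 each). Control S6 had the highest ratio of all libraries, 6.01, with the lowest nuclear share and the second highest mitochondrial share.

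**Figure D1:**
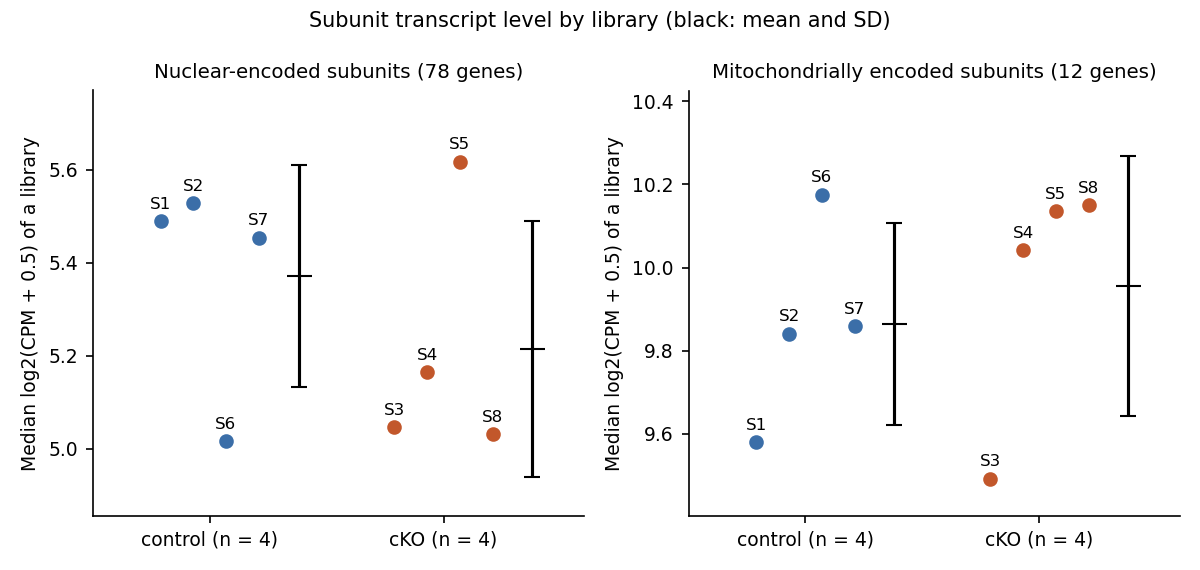
Median log2(CPM + 0.5) of the 78 tested nuclear-encoded subunit genes (left) and the 12 tested mitochondrially encoded ones (right) in each library, with library names; black bars give the group mean and SD (n = 4). Control S6 sits below the other control libraries on the left, at 5.02, and above them on the right, at 10.2, while cKO S3 is the lowest of all on the right, at 9.49.

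The plot of library medians shows how far single libraries spread within a group. The median nuclear-encoded subunit stood at 5.37 ± 0.24 on the log2(CPM + 0.5) scale in control and 5.21 ± 0.28 in cKO libraries (SD, n = 4 each), a difference of -0.16 that is smaller than either SD. Without control S6 the difference was -0.28, with a control SD of 0.04, and without cKO S5 it was -0.29, with a cKO SD of 0.07 and larger than either SD. It was -0.10 without cKO S3 and also without cKO S8, and -0.06 with library totals in place of TMM scaling. Control S6 was the lowest control library for 50 of the 78 tested nuclear members (64.1%), whereas it was the lowest for 24.2% of all genes. The same library was the highest control library for 12 of the 12 tested mitochondrial members and for 25.8% of all genes. It also had the highest summed level of 7 fibroblast markers, 615 CPM against 124 to 249 CPM in the other control and 79.2 to 182 CPM in the cKO libraries, and the part of these cells in the subunit levels was not tested. Among cKO libraries, S5 was the highest for 39 of 78 nuclear members and S3 the lowest for 37 of 78 nuclear and 9 of 12 mitochondrial members. Of all genes, cKO S5 was the highest for 32.2% and the lowest for 36.0%, and cKO S3 was the lowest for 19.3%. The median mitochondrially encoded subunit stood at 9.86 ± 0.24 in control and 9.95 ± 0.31 in cKO libraries.

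Of the mitochondrially encoded subunits, mt-Co1, the catalytic core subunit of complex IV, had the highest level by CPM per kilobase. Its CPM per kilobase of exon was 5860.5 ± 851 in control and 5836 ± 985 in cKO libraries (SD, n = 4 each), and in the control libraries its lowest value, 5170, lay above the highest value of every other member. Next in the control libraries came mt-Cytb, the cytochrome b of complex III, at 1981 ± 280 CPM per kilobase, and mt-Co3, another core subunit of complex IV, at 1761 ± 282. These neighbours overlapped, as did mt-Co2, the copper-binding core subunit of complex IV (1324 ± 189), mt-Atp6, the proton channel subunit of complex V (1276 ± 219), mt-Nd1 (1265 ± 243) and mt-Nd4 (1222 ± 205), both core membrane subunits of complex I. The library ranges did not overlap between mt-Nd4 and the next gene, mt-Atp8, at 672 ± 111. In the authors' FPKM, also scaled by length, mt-Atp8 was instead the highest mitochondrial member. Its mean FPKM was 9920 in control and 9896 in cKO libraries, against 8819 and 9026 for mt-Co1. Lower still were mt-Nd5 (536 ± 114), mt-Nd2 (299 ± 45.3), mt-Nd6 (185 ± 39.7) and mt-Nd3 (82.8 ± 12.1), all of complex I. Among these, mt-Nd6 is the only subunit gene on the other strand of the mitochondrial DNA, where it overlaps the end of mt-Nd5 in the annotation, and without a known strand setting reads of the overlap cannot be told apart.

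The lowest mitochondrial member, mt-Nd4l, a small complex I subunit, was at 1.28 ± 0.609 CPM per kilobase in control and 1.10 ± 0.340 in cKO libraries, from only 4 to 10 reads in each library. Of its 297 bases, 294 were compared with the annotated pseudogene Gm10222 on chromosome 1 and had 0 differences, and in Gm10222 1 to 6 reads were counted. The same chromosome holds copies of mt-Nd3 (1 difference in 345 bases), mt-Co2 (0 in 681), mt-Co3 (0 in 783) and mt-Atp6 (0 in 678). Reads that aligned to several places were not assigned to genes in the authors' counts and made up 20.4% to 24.2% of all reads. Of windows of 50 bases, 100% were found in other annotated transcripts for mt-Co2, 99.9% for mt-Co3, 99.5% for mt-Atp6, 98.8% for mt-Nd4l, 98.0% for mt-Nd3, 62.2% for mt-Nd4 and 51.1% for mt-Co1. The levels of these 7 genes are therefore uncertain, while mt-Nd1, mt-Nd6, mt-Cytb and mt-Atp8 shared 0% of their windows with other annotated transcripts. Copies outside annotated transcripts were not searched, so 0% does not show that reads of a gene fit only 1 place. In particular, mt-Atp8 lies between mt-Co2 and mt-Atp6, whose copies on chromosome 1 had 0 differences, and its level is uncertain as well. The part of shared sequence in the low level of mt-Nd4l was not tested. The read length is not given in the sources used here.

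**Figure D2:**
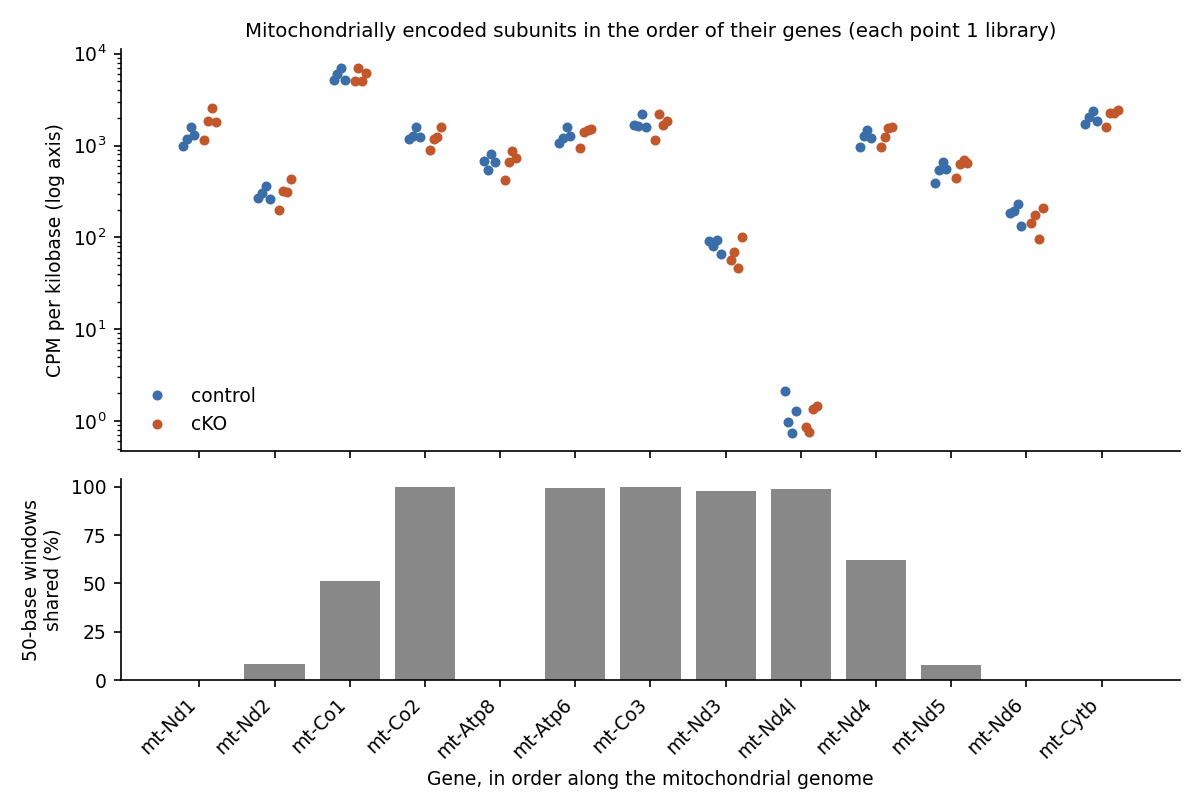
Top: CPM per kilobase (log axis) of the 13 mitochondrially encoded subunit genes in the order of the mitochondrial genome, with 1 point for each of the 4 control (blue) and 4 cKO (orange) libraries. Bottom: percent of each gene's 50-base windows found in another annotated transcript; mt-Co1 is the highest gene, and mt-Nd4l, with 98.8% shared, the lowest, while mt-Co2, with 100% shared, stands near mt-Nd1, with 0%.

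None of the 12 mitochondrially encoded subunits that passed the filter on low counts differed between the genotypes at an adjusted p under 0.05 (edgeR, Benjamini-Hochberg over 14757 genes). In that comparison 47 of all genes passed, which is 0.318%. At an unadjusted p under 0.05 there was 1 mitochondrial member with a higher value in cKO and 0 with a lower one, while 9.81% of all genes passed that level, 5.03% higher and 4.77% lower. DESeq2 and limma-voom also called 0 of these members. That member was mt-Nd1, a core membrane subunit of complex I near the quinone site, at GRCm38 chrM:2751-3707. Its CPM was 948, 1139, 1505 and 1249 in the control libraries and 1102, 1764, 2476 and 1708 in the cKO libraries. In 3 of the 4 cKO libraries mt-Nd1 lay above every control library, and in cKO S3 it lay within the control range. The means were 1210.2 ± 233 and 1763 ± 562 CPM (SD, n = 4 each), and the log2 fold change was 0.54 (SE 0.23, edgeR adjusted p = 0.449). Without cKO S5 the log2 fold change was 0.34, with an edgeR adjusted p of 0.778.

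As a share of all mitochondrially encoded subunit reads, mt-Nd1 took 5.82% to 7.12% in the control libraries and 7.13% to 12.4% in the cKO libraries. These ranges did not overlap, although control S7 (7.12%) and cKO S3 (7.13%) nearly met, and cKO S5 was the highest. In the same libraries mt-Co1 took 47.9% ± 1.51 in control and 45.7% ± 5.52 in cKO (SD, n = 4 each), with 38.7% in cKO S5. The remaining mitochondrial members had log2 fold changes between -0.28 for mt-Nd3 and 0.17 for mt-Nd5, and their median with mt-Nd1 was 0.03. The 5 members below 0 were mt-Nd3 (-0.28), mt-Nd6 (-0.25), mt-Co2 (-0.11), mt-Co3 (-0.03) and mt-Co1 (-0.01). The median was below 0 without control S1 (-0.01) and without cKO S8 (-0.04), and it was 0.19 without cKO S3.

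The 2 ribosomal RNAs of the mitochondrion, which are transcribed from the same genome, had log2 fold changes of -0.02 for mt-Rnr1 (SE 0.17, edgeR adjusted p = 0.980) and -0.29 for mt-Rnr2 (SE 0.17, edgeR adjusted p = 0.611). Subunit reads per mitochondrial ribosomal RNA read were 0.0585, 0.0677, 0.0658 and 0.0583 in the control libraries and 0.0759, 0.0795, 0.0826 and 0.0688 in the cKO libraries. The ranges of this ratio did not overlap, with all 4 cKO libraries above all 4 control libraries. No test was made of it, because the ratio was chosen after the data were seen. The share of reads from ribosomal and related transcripts, 39.3% to 46.3% in control and 33.8% to 45.6% in cKO libraries, was lowest in cKO S3 and S5. It includes the 2 mitochondrial ribosomal RNAs, which took 26.9% to 32.6% of gene reads in control and 23.8% to 29.5% in cKO libraries. These reads are also the denominator of the ratio, so the share and the ratio are not independent. What moved the ratio was not tested.

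Of the 86 nuclear-encoded members, 78 passed the filter on low counts, and 0 of them differed between the genotypes at an adjusted p under 0.05 (edgeR). Among all genes tested 0.318% did. DESeq2 and limma-voom also called 0 of the nuclear-encoded members. At an unadjusted p under 0.05 edgeR gave 0 members higher and 4 lower in cKO, against 5.03% of all genes higher and 4.77% lower, and DESeq2 gave 0 higher and 8 lower, against 8.98% of the 23932 genes it tested, 4.46% higher and 4.52% lower. The estimates were below 0 for 57 of the 78 (73.1%), with a median log2 fold change of -0.16, and below 0 for 51.6% and above 0 for 48.4% of all genes, with a median of -0.02. With library totals in place of TMM scaling the median of all genes was 0.09 and that of the nuclear members -0.06, with 50 of 78 below 0. Single libraries moved these counts. Without control S6, 72 of 78 were below 0 and the median was -0.25. In that fit 13 members, all with lower values in cKO, had an unadjusted p under 0.05, as did 9.29% of all genes, 4.88% higher and 4.41% lower. Without control S1 the median was -0.10, and without cKO S5 68 of 78 were below 0. Markers of several other cell types also had estimates below 0, namely 10 of 10 of oligodendrocytes (median log2 fold change -0.46), 6 of 6 of oligodendrocyte precursors (-1.18), 8 of 8 of endothelial cells (-1.09) and 6 of 6 tested of fibroblasts (-1.70), with 0 of them past the adjusted threshold (edgeR). At an unadjusted p under 0.05 they counted 3, 3, 3 and 2 lower in the same order and 0 higher. The 8 endothelial markers summed to 40.9 to 70.1 CPM in control and 20.1 to 51.7 CPM in cKO libraries, with 0 of them at 0 in any library. Estimates were below 0 for 6 of 9 tested markers of neurons, 4 of 6 of mural cells, 3 of 11 of astrocytes and 2 of 8 of microglia. The part of these cells in the subunit estimates was not tested. The members share their libraries, so their estimates are not independent of each other.

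**Figure D3:**
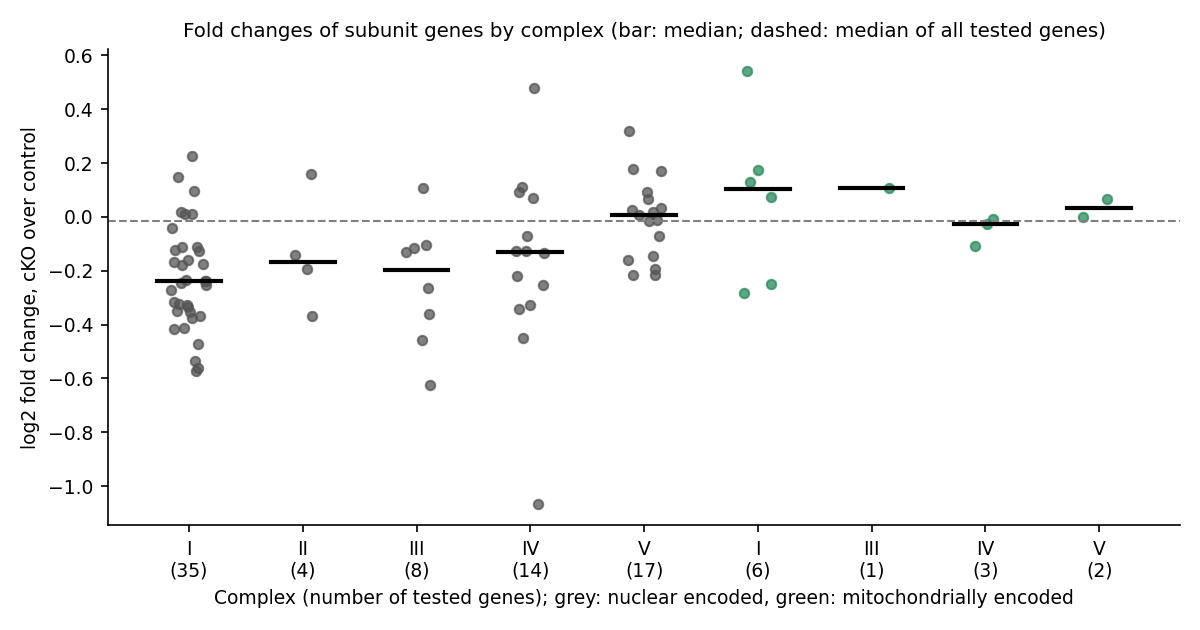
Log2 fold change (cKO over control) of each tested subunit gene, grouped by complex, with nuclear-encoded genes in grey and mitochondrially encoded genes in green; bars are medians and the dashed line is the median of all tested genes, -0.02. Nuclear-encoded complex I has 29 of 35 points below 0 and a median of -0.24, whereas nuclear-encoded complex V has 8 of 17 below 0 and a median of 0.01.

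The plot of fold changes by complex separates the nuclear-encoded genes into groups whose medians ran from -0.24 to 0.01. Whether complexes differ from each other was not tested. Over the 20 alternative settings the median ran from -0.32 to -0.15 for complex I, from -0.31 to -0.03 for complex II, from -0.29 to -0.10 for complex III, from -0.30 to -0.03 for complex IV and from -0.13 to 0.10 for complex V.

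Complex I takes electrons from NADH. Of its 35 tested nuclear-encoded subunits, 29 had an estimate below 0, and the median was -0.24. Among the 7 nuclear-encoded core subunits, which carry the flavin and the iron-sulfur clusters, 7 were below 0, with a median of -0.37 and a range from -0.54 for Ndufv1 to -0.16 for Ndufs3. Among the 28 tested accessory subunits 22 were below 0, with a median of -0.24.

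Ndufv1 holds the flavin at which NADH is oxidised and lies at GRCm38 chr19:4007384-4012806. Its CPM was 55.6, 64.1, 47.0 and 43.3 in the control libraries and 36.9, 35.4, 29.4 and 43.1 in the cKO libraries. All cKO libraries lay below all control libraries, though control S7 and cKO S8 differed by less than 1 CPM. The means were 52.5 ± 9.29 and 36.2 ± 5.63 CPM (SD over 4 libraries each); the log2 fold change was -0.54 (SE 0.20, edgeR adjusted p = 0.371).

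Ndufb11 encodes an accessory subunit of the membrane arm and lies on the X chromosome at GRCm38 chrX:20615326-20617619, where it overlaps Rbm10 on the opposite strand. Its CPM was 42.0, 45.8, 29.4 and 39.2 in the control libraries and 22.5, 28.7, 31.2 and 23.5 in the cKO libraries. Control S6 was the only control library within the cKO range. The log2 fold change was -0.56 (SE 0.21, edgeR adjusted p = 0.389). With the Xist level as a covariate it was -0.60 (edgeR adjusted p = 0.490). The YY1 match of its promoter, shown above, lies upstream of the start, and 18 of 72 member promoters hold that motif. Of its 50-base windows, 17.5% are found in other annotated transcripts, and the strand setting of the counting is not given in the sources used here.

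By level, the rule picked Ndufa3 and Ndufc1, accessory subunits, as the complex I members with the highest mean FPKM, the authors' value scaled by length and depth. Ndufa3 was at 35.0 ± 3.36 CPM in control and 27.8 ± 9.95 CPM in cKO libraries, with cKO S5 at 42.6 CPM and the other 3 at 21.6 to 24.0 CPM. Ndufc1 was at 52.8 ± 12.3 and 48.8 ± 10.8 CPM, with cKO S3 at 32.7 CPM and the other 3 cKO libraries at 53.4 to 55.2 CPM. A single cKO library thus set most of the spread in both genes. Ndufa11, an accessory subunit of the membrane arm and the tested complex I member with the lowest mean FPKM, was at 27.4 ± 9.24 and 21.2 ± 5.27 CPM, with overlapping ranges. The highest estimate among the nuclear-encoded members of complex I was 0.23 for Ndufa12, an accessory subunit (SE 0.18, edgeR adjusted p = 0.735).

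Complex II, succinate dehydrogenase, is encoded entirely in the nucleus and belongs also to the tricarboxylic acid cycle. Its 4 genes had log2 fold changes of -0.19 for the flavin subunit Sdha, -0.14 for the iron-sulfur subunit Sdhb, -0.37 for the membrane anchor Sdhc and 0.16 for the other anchor Sdhd. Sdhd was at 83.9 CPM in cKO S5 and at 29.6 to 39.6 CPM in the other cKO libraries, against 29.7 to 56.0 CPM in control. Sdhb showed the same library highest, with 55.6 CPM in cKO S5 against 22.2 to 28 CPM in the other cKO libraries. All 4 genes overlapped between the groups, while 6.34% of all genes tested did not.

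Complex III passes electrons from ubiquinol to cytochrome c. Of its 8 nuclear-encoded members 7 had an estimate below 0, with a median of -0.20. Uqcrq, a small subunit bound near cytochrome b, at GRCm38 chr11:53427922-53430831, had the lowest estimate. Its CPM was 40.7, 45.5, 28.2 and 78.1 in the control libraries and 25.9, 33.7, 27.0 and 38.2 in the cKO libraries. The groups overlapped, and control S7 was far above the other 7 libraries. The log2 fold change was -0.63 (SE 0.28, edgeR adjusted p = 0.491), and without control S7 it was -0.28 (edgeR adjusted p = 0.781). Uqcr10, another small subunit and the nuclear-encoded member of complex III with the highest level per length, was at 66.1 ± 19.1 CPM in control and 60.4 ± 13.1 CPM in cKO libraries. Uqcrh, the hinge protein that binds cytochrome c1, was at 63.2 ± 11 and 58.8 ± 13.8 CPM, and Uqcrfs1, the Rieske iron-sulfur protein, at 59.5 ± 22.0 and 54.9 ± 6.24 CPM. Only Uqcrc1, a core protein, had an estimate above 0 (0.11), with cKO S5 at 127 CPM and the other 3 cKO libraries at 61.6 to 67.4 CPM.

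Complex IV reduces oxygen. Of its 14 tested nuclear-encoded members 10 had an estimate below 0, with a median of -0.13. Cox6c, a small subunit that surrounds the catalytic core, at GRCm38 chr15:35925886-35938246, had the smallest p of all 90 tested members. Its CPM was 105, 83.3, 88.7 and 91.9 in the control libraries and 61.1, 75.3, 66.3 and 66.9 in the cKO libraries. The groups did not overlap, and the highest cKO library, S4, lay below the lowest control library, S2. The means were 92.1 ± 9.05 and 67.4 ± 5.86 CPM (SD over 4 libraries each); the log2 fold change was -0.45 (SE 0.15, edgeR adjusted p = 0.327). Over the 20 alternatives the log2 fold change ran from -0.54 to -0.35 and the adjusted p was at its lowest 0.082. In the authors' deposited table its adjusted p was 0.0701, with a log2 fold change of -0.44. Cox6c overlaps Vps13b on the opposite strand, and 8.37% of its 50-base windows are shared with other transcripts.

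**Figure D4:**
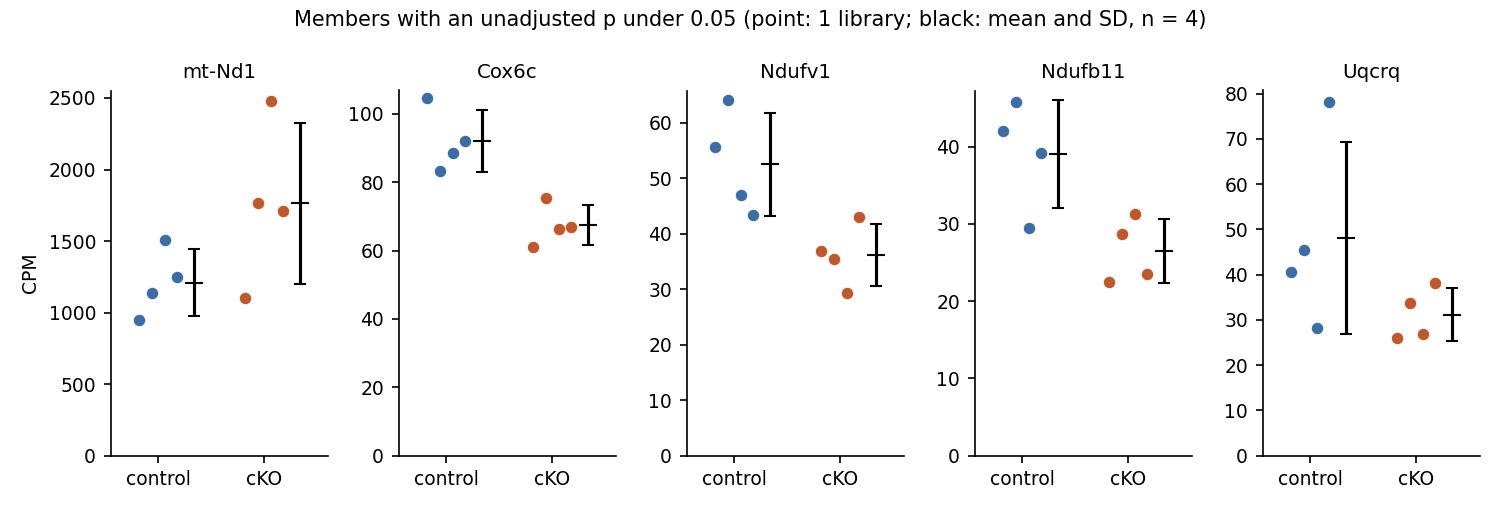
CPM in each library for the 5 members with an unadjusted p under 0.05 (edgeR), with control libraries in blue, cKO libraries in orange and the group mean and SD in black (n = 4). Cox6c and Ndufv1 do not overlap between the groups, whereas mt-Nd1, Ndufb11 and Uqcrq do, and the adjusted p of all 5 lies between 0.327 and 0.491.

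The plot of the 5 members with the smallest p-values shows the spread behind these estimates. Of the 78 tested nuclear-encoded members, 7 had all cKO libraries below all control libraries and 0 had them above, while 6.34% of all genes did not overlap, 2.94% lower and 3.39% higher. Besides Cox6c and Ndufv1 these were Ndufa4, Ndufa9, Ndufs8, Uqcrb and Uqcrc2, named after their values were seen. Ndufs8, an iron-sulfur core subunit of complex I, was at 26.1 to 33.8 CPM in control and 21.7 to 23.5 CPM in cKO libraries, a log2 fold change of -0.42 (edgeR adjusted p = 0.516). Uqcrb, the ubiquinone-binding subunit of complex III, was at 16.7 to 23.2 CPM in control and 12.8 to 16.5 CPM in cKO libraries (log2 fold change -0.46, edgeR adjusted p = 0.547). Ndufa9, an accessory subunit of complex I, had the smallest mean spread within groups of all tested nuclear members, an SD of 0.07 on the log2(CPM + 0.5) scale, and its log2 fold change was -0.23 (edgeR adjusted p = 0.713). Among the mitochondrially encoded members 0 of 12 did not overlap.

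Several complex IV and V subunits exist as isoforms with tissue-restricted genes, and these families showed which form the astrocyte libraries held. Cox4i1, the general form of the largest nuclear-encoded subunit of complex IV, was at 139 ± 24.8 CPM in control and 128 ± 18.5 CPM in cKO libraries. It made up 100% of the summed CPM per kilobase of its family in control and 99.6% in cKO libraries, while Cox4i2, a form known from lung, was at 0 to 0.127 CPM in control and 0 to 0.514 CPM in cKO libraries. A count of 0 allows up to 0.128 to 0.218 CPM, depending on the library, from 3 reads. Cox6a1 and Cox8a, the general forms, were at 160 ± 40.6 and 140.2 ± 31.2 CPM in control and at 127 ± 12.9 and 150 ± 36.5 CPM in cKO libraries. Their muscle forms were at or near 0, Cox6a2 with 1 read in cKO S3 alone, and Cox8b at up to 0.604 CPM in control and 1.99 CPM in cKO libraries. Ndufa4l2, a relative of Ndufa4 known to be induced by low oxygen, and Cox8c, a form known from testis, were listed at 0 in all 8 libraries.

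The Cox7a family was mixed. Cox7a2, the general form, took 52.5% ± 5.37 of the family's CPM per kilobase in control and 52.8% ± 6.28 in cKO libraries (SD, n = 4 each), and Cox7a2l, a related protein of respiratory supercomplexes, took 44.0% ± 7.99 and 43.9% ± 5.37. Cox7a1, the heart and muscle form, took 3.52% ± 3.07 and 3.27% ± 1.03. In Cox7a1 the control libraries ran from 0.0474 to 3.06 CPM, a wider range than in the cKO libraries (0.969 to 1.67 CPM). Cox7b took 96.2% of its family in control and 95.7% in cKO, with Cox7b2, a testis form, holding the rest. Cox6b1 took 96.3% ± 1.39 in control and 98.0% ± 1.05 in cKO libraries. Its testis form Cox6b2 was at 2.22, 4.88, 4.17 and 5.31 CPM across the control libraries and at 1.33, 1.32, 1.31 and 3.94 CPM in the cKO libraries. Of the cKO libraries only S8 lay within the control range of Cox6b2, and the log2 fold change, the lowest of all members, was -1.07 (SE 0.58, edgeR adjusted p = 0.579). Without cKO S8 it was -1.65 (edgeR adjusted p = 0.452).

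**Figure D5:**
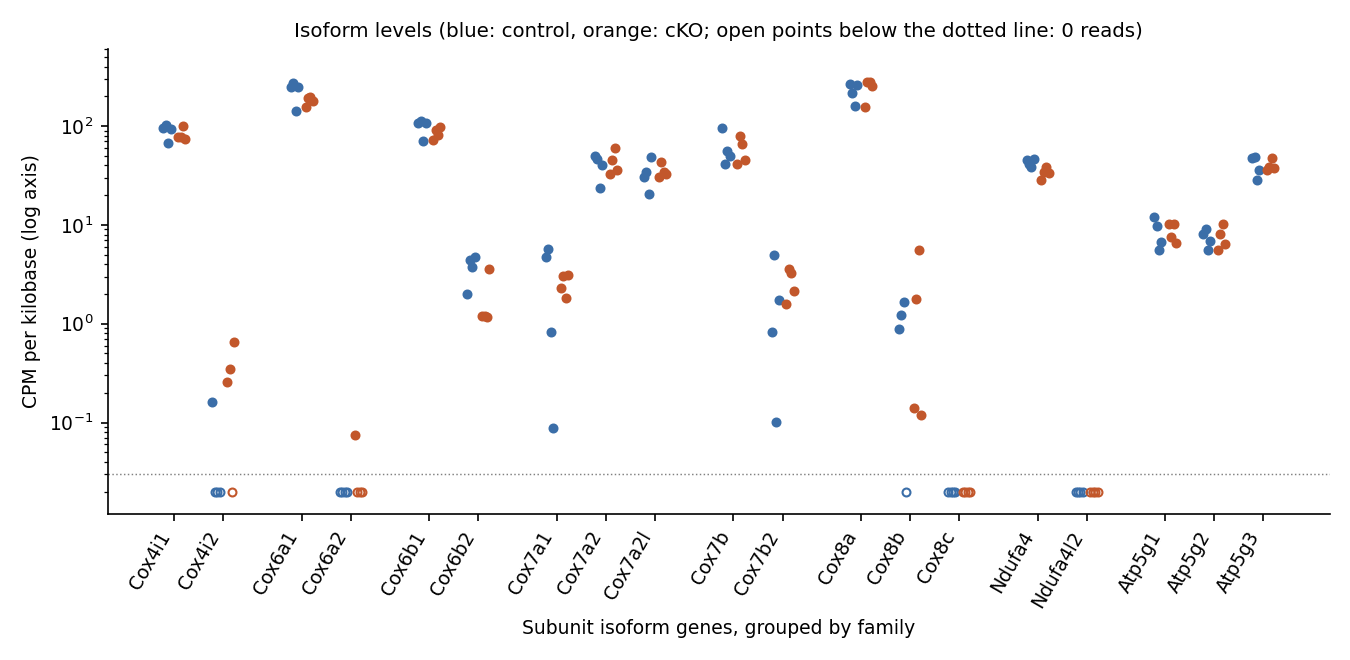
CPM per kilobase (log axis) of subunit isoform genes by family, with 4 control (blue) and 4 cKO (orange) libraries a gene; open points below the dotted line are libraries with 0 reads. Cox4i1, Cox6a1, Cox6b1, Cox8a and Ndufa4 stand far above their relatives, whereas Cox7a2 and Cox7a2l overlap and Atp5g3 leads Atp5g1 and Atp5g2.

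Complex V makes ATP. Its 17 tested nuclear-encoded members had a median log2 fold change of 0.01, with 8 below 0, 0 at an unadjusted p under 0.05 (edgeR) and 0 without overlap. Of all genes tested, 9.81% were at that level and 6.34% did not overlap, so counts of 0 in 17 genes say little. Atp5b, the catalytic beta subunit, had the highest CPM of the nuclear members, with 985, 874, 578 and 785 CPM in the control libraries and 766, 899, 877 and 721 CPM in the cKO libraries. Control S6 was the lowest of all 8 libraries, and the other 3 control libraries overlapped the cKO range. The means were 805 ± 172 and 816 ± 85.9 CPM, with a log2 fold change of 0.02 (SE 0.18, edgeR adjusted p = 0.984). Per length it was at 190.1 ± 40.7 CPM per kilobase in control libraries, within the range of Cox6a1 (228 ± 57.8) and Cox8a (226 ± 50.5). Atp5j, coupling factor 6 of the stalk, was at 45.3 CPM in control S6, while the remaining controls lay between 85.1 and 89.7 CPM, against 74.6 to 101 CPM in cKO. Atp5s, a coupling factor that is not part of the enzyme itself, was at 7.40 ± 4.14 and 9.20 ± 3.50 CPM.

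The c-ring of the ATP synthase is built from identical proteins made by the genes Atp5g1, Atp5g2 and Atp5g3, which differ in the leader that directs import. Atp5g3 took 71.8% ± 0.991 of their summed CPM per kilobase in control and 71.2% ± 2.17 in cKO libraries (SD, n = 4 each). Atp5g1 took 14.9% ± 1.87 and 15.4% ± 2.97, and Atp5g2 took 13.3% ± 0.953 and 13.4% ± 2.06. The proportions of the 3 genes thus differed between the groups by less than their SDs. Of the 50-base windows of Atp5g2, 38.3% are found in other transcripts, among them the pseudogene Gm10175, so its share is uncertain. The shares also depend on the length used, the merged annotated exons, 4912 bases for Atp5g1, 1675 for Atp5g2 and 2181 for Atp5g3. Without scaling by length, the authors' mean counts in control were 767, 228 and 1617 in the same order. Across the 78 tested nuclear members, CPM per kilobase and FPKM had a Spearman correlation of 0.71.

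Reads that fit more than 1 gene affect the nuclear members less than the mitochondrial ones. No window was shared in 35 nuclear members, and over 10% of windows were shared in 21. Among the 60 tested nuclear members with at most 10% shared, 46 had an estimate below 0, the median was -0.17 and 0 passed the adjusted threshold. The 8 nuclear members that did not pass the filter were Gm10175, Gm10221, Gm11273, Cox4i2, Cox6a2, Cox8b, Cox8c and Ndufa4l2, and 3 of them, Gm11273, Cox8c and Ndufa4l2, were at 0 in all libraries. In addition, 37 nuclear members overlap another annotated gene. Within a group the median SD of a tested nuclear member was 0.33 on the log2(CPM + 0.5) scale beside 0.36 for the 7931 tested genes with a mean between 8.04 and 135 CPM, which is the range of the nuclear members from their 5th to their 95th percentile. The median SD of a tested mitochondrial member was 0.31, at mean levels between 26.2 and 9036 CPM.

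The factors that carry electrons between the complexes and those that assemble or regulate them were examined as lists of the same pathway. None of their tested genes passed the adjusted threshold of 0.05 (edgeR), with 0 of 16 complex I assembly factors, 0 of 31 assembly factors of complexes II to V, 0 of 12 genes of cytochrome c and the quinone pool, 0 of 21 genes of mitochondrial genome expression, 0 of 11 nuclear regulators, 0 of 19 of the tricarboxylic acid cycle, 0 of 17 carriers, 0 of 16 of protein import and 0 of 76 of the mitochondrial ribosome. It was also passed by 0 of 96 genes whose symbols match the cytosolic ribosome, a pattern that also took Rps6k kinases. Of all genes tested, 0.318% passed it, so 0 in lists of this size lies near that share. Counts at an unadjusted p under 0.05 were 0 higher and 0 lower for complex I assembly, cytochrome c and quinone, and carriers. Among all genes tested the shares at that level were 5.03% higher and 4.77% lower. The counts were 0 higher and 4 lower for complex II to V assembly, 0 and 1 for genome expression, 3 and 0 for nuclear regulators, 0 and 1 for the tricarboxylic acid cycle, 0 and 1 for import, 1 and 3 for the mitochondrial ribosome and 2 and 1 for the cytosolic ribosome. Median log2 fold changes were -0.18 for complex I assembly factors, -0.02 for those of complexes II to V, 0.01 for cytochrome c and quinone genes, 0.04 for genome expression, 0.29 for nuclear regulators, -0.06 for the tricarboxylic acid cycle, -0.10 for carriers, -0.04 for import, -0.09 for the mitochondrial and 0.01 for the cytosolic ribosome.

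Among the nuclear regulators, Ppargc1a, a coactivator known for driving mitochondrial biogenesis, was at 187, 186, 179.5 and 173 CPM across the control libraries and at 203, 243, 211 and 232 CPM in the cKO libraries. Its groups did not overlap, with the cKO libraries higher, and the log2 fold change was 0.29 (SE 0.14, edgeR adjusted p = 0.518). Esrrg, an oestrogen-related receptor that binds promoters of respiratory genes, was at 16.3 ± 4.23 CPM in control and 34.5 ± 5.57 CPM in cKO libraries, again without overlap (log2 fold change 1.08, edgeR adjusted p = 0.096), and is named after its value was seen. Nrf1, nuclear respiratory factor 1, was at 29.0 ± 4.2 and 25 ± 3.34 CPM with overlapping ranges (log2 fold change -0.21, edgeR adjusted p = 0.791).

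Tfam, the factor that packages and transcribes mitochondrial DNA, was at 11.8, 8.88, 49.0 and 10.2 CPM across the control libraries and at 8.27, 13.7, 7.58 and 7.88 CPM in the cKO libraries. Control S6 held over 3 times the Tfam of any other library. It was also the highest control library for all tested mitochondrial members, and a link between these values was not tested. The median mitochondrial member stood at 10.18 on the log2(CPM + 0.5) scale in control S6. In cKO S5 and S8, with Tfam at 7.58 and 7.88 CPM, that median was 10.14 and 10.15. The log2 fold change of Tfam was -1.09 (SE 0.51, edgeR adjusted p = 0.510), and without control S6 it was -0.14 (edgeR adjusted p = 0.940). Cyc1, the cytochrome c1 of complex III, which the symbol rule does not take, was at 88.0 ± 10.4 CPM in control and 103 ± 32.6 CPM in cKO libraries (log2 fold change 0.22, edgeR adjusted p = 0.791). The identifier that the deposited comparison calls Cycs was counted at no more than 0.204 CPM in any library, from 0 to 4 reads. Of its 50-base windows, 94.4% are found in a different annotated gene named Cycs, and pseudogenes share windows as well. The level of cytochrome c itself is therefore not given here.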

How the data were processed

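RNA of 8 libraries was compared, 4 control and 4 cKO, grouped by their titles. Per the submitters' processing notes, the tools named were FastQC 0.11.4, TopHat2 2.0.11, Bowtie2 2.2.3, HTSeq 0.6.1p1, DESeq2 1.14.1, Cuffnorm and Cufflinks 2.2.1, with genome build GRCm38; strand setting and read length are not given in the sources used here. The authors deposited whole-number read counts for 39179 genes in each library. The 5 summary lines that end each table held 56.4% to 61.7% of all reads and were left out of library sizes. The authors also deposited FPKM values for 39171 genes. In 3 of 8 FPKM columns the values tracked the counts of the like-named library (10683 genes), and in 8 of 8 a library of their own group, so FPKM was used for group means and group tests alone. Per the file headers, the authors' DESeq2 table holds group mean counts after size-factor scaling (a signal per gene), log2 fold changes, their standard errors and test statistics (a score), and p-values with adjusted p-values.

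Counts were tested with edgeR 4.0.16 (R 4.3.3, TMM scaling, filterByExpr, quasi-likelihood test, Benjamini-Hochberg over 14757 genes, threshold 0.05). The alternatives were DESeq2 1.42.0, limma 3.58.1 (voom, and FPKM with pseudocounts of 1 and 0.1 and a mean FPKM of 0.5 as filter), other scalings and filters, an Xist covariate and leaving out each library. The edgeR test was also run on simulated counts, with changes larger than the estimates of most members. That run does not show how well changes as small as those estimated here are found. Gene positions, exon lengths and 50-base windows came from GENCODE release M21 and promoters from RefSeq; 37607 gene identifiers had a GENCODE record. The NRF1 motif was shortened to CGCATGCG after results were seen; the longer form searched first, with G before and C after it, was in 5 of 72 member promoters (6.94%) and 0.971% of all. Intervals and floors cover counting error only, and a floor is 3 counts.

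The members and lists were chosen with earlier results of these data known. Genes were named by rule: all mitochondrial members, nuclear members past the threshold, up to 6 in each direction with the largest change among those with an unadjusted p under 0.05, the 2 with the highest and the 1 with the lowest mean FPKM in each complex, isoform families, and a fixed set of related genes. The p-values measure the spread between these libraries.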

Additional observations from a re-analysis of the deposited data

Results flagged for a closer look

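In 10 of 100 gene and group combinations, each of 4 libraries, 1 library stood apart from the other 3 by Dixon's 95% criterion. Chance gives about 1 in 20 such groups, or 5 of 100, for values that vary freely. In Cox4i2 in control and Cox6a2 in cKO only 1 library held reads, which fixes the outcome, and the members share libraries. The 10 can therefore not be weighed against the 5.

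Among the control libraries, mt-Co3 was at 1709.9 CPM in S6 against 1236 to 1309 CPM in the others. Atp5j was at 45.3 CPM in S6 against 85.1 to 89.7 CPM, and Cox6b1 at 49.6 CPM in S6 against 76.5 to 80.7 CPM. Control S6 was thus high for the mitochondrial gene and low for both nuclear genes. Cox4i2 was at 0.127 CPM in S1 and at 0 in the others, which is a count within the floor.

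Among the cKO libraries, S5 was high for Ndufa3, 42.6 CPM against 21.6 to 24.0 CPM, and for Cox4i1, 155 CPM against 115 to 121 CPM. Ndufc1 was low in S3, at 32.7 CPM against 53.4 to 55.2 CPM. In S8, Ndufa11 was at 29.1 CPM against 17.7 to 19.1 CPM, and Cox6b2 at 3.94 CPM against 1.31 to 1.33 CPM. Cox6a2 was at 0.0511 CPM in S3, from a single read, and at 0 in the others.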

How the results depend on the processing

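The count of subunit genes past the threshold was 0 for the nuclear and 0 for the mitochondrial members in the reported fit and in all alternatives run, 20 and 19 of them. For 42 named members, 826 values under alternatives held 0 past the threshold, and 21 of the members changed sign in at least 1 alternative. The count of all genes past the threshold, 47 in the reported fit, depended on the setting. It was 87 with a filter of at least 1 count in any library, 84 with at least 10 counts in every library, 27 with Xist as a covariate, 384 with DESeq2, 10 with FPKM and a pseudocount of 1, 14 with a pseudocount of 0.1 and 6 without a filter, and ran from 4, without cKO S4, to 45 when 1 library was left out. The cause was not tested. Kcnj10 ran from -6.12 to -5.61 over its alternatives. The difference in subunit reads per mitochondrial ribosomal RNA read, 0.0141 in all libraries, ran from 0.0122 to 0.0168 when 1 library was left out, an alternative chosen after seeing the data. No paired analysis was made, because the labels name no litters or pairs. Every library has its own S number, so the numbers do not show whether animals of the groups were related. The tested nuclear members had a median SE of 0.23 on the log2 scale, beside a median estimate of -0.16.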
